A study of Sus scrofa with 6 samples.

Results

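Cytokines and chemokines are the secreted proteins with which epithelium and leukocytes signal to each other. Interleukins, tumour necrosis factor relatives and interferons act on receptors of nearby cells and set off or dampen inflammation, whereas chemokines form gradients along which leukocytes move into a tissue. In the uterus they are known for recruiting leukocytes after mating and for the exchange between epithelium, immune cells and conceptus before attachment. The members examined here are the genes of a list of 54 symbols, of which IL8 and CXCL8 name the same gene. The porcine array names 40 of these 53 genes with 48 probe sets, out of 6765 genes named on it, and the other 13, among them IL1RN, IL33 and CCL20, were not analysed here. Where a gene had several probe sets, the one with the highest mean signal was used. A mean signal of 50 or more over the arrays was reached by 5 members, and 35 lay under it.

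The arrays compare the uterine horns of 3 crossbred Landrace x Large White sows. In each sow 1 oviduct received spermatozoa by laparoscopic insemination, so that the horn on that side held blastocysts on day 6, and the contralateral oviduct received diluent alone, so that its horn held unfertilised oocytes. Epithelial cells scraped from the tip of each horn were hybridised to an array of their own, which gave 3 arrays of embryo horns and 3 of oocyte horns. Effects of the embryos and of the spermatozoa on the same side cannot be told apart in this design, and both horns of a sow shared its hormones, its anaesthesia and the flushing of the tract. Signals are in arbitrary units on a linear scale as deposited, with every array scaled to the same trimmed mean, and on each array between 25.4% and 29.0% of all signals were below 10. A signal depends on the probes as well as on the transcript, so signals of different genes were not ranked against each other. Differences are given as log2 of embryo over oocyte horns after normalization between arrays, with the standard error (SE) from limma.

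The scrapings were of epithelial cells by their markers, although not of these alone. EPCAM, an adhesion molecule of epithelium, had a signal of 2014, 2173 and 2296 in the embryo horns of sows 1, 2 and 3, against 2163, 2160 and 2328 in the oocyte horns. Stromal markers were also present, with a summed signal of 3220 to 6559 in embryo horns and 3305 to 7022 in oocyte horns for 5 of 6 listed genes. T cell markers (6 of 6 listed genes) summed to 99.4 to 153 in embryo horns and 94.4 to 168 in oocyte horns, macrophage or monocyte markers (3 of 5) to 78.1 to 112 and 59.2 to 87.4, and neutrophil markers (3 of 3) to 30.8 to 32.7 and 17.3 to 30.3. No marker was at 0, and none of the marker genes passed the test between the groups. Fewer cells of a type and less RNA per cell cannot be told apart in such bulk samples.

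No cytokine or chemokine passed the test between embryo and oocyte horns. With limma 0 of the 40 members passed an adjusted p of 0.05 (smallest adjusted p = 1.00), as did 0% of the 23999 probe sets tested, and with the sow as a block 0 members passed as well. At an unadjusted p under 0.05 there were 0 members, against 2.88% of all probe sets, and with the block 1 member (CCL5), against 8.70%. The 5 members with a signal of 50 or more had a median log2 difference of -0.01, and the same median over the 10095 probe sets of that brightness was 0.01. Single values ran from -0.12 for CCL28 to 0.21 for IL18. Precision differed between them, so an interval is given for each below. These intervals are from the fit without the sow, so their width includes the spread between sows. With the sow as a block the SE was smaller. It was 0.08 for CCL28, 0.09 for AMCF-II, 0.15 for CXCL2, 0.10 for CXCL16 and 0.19 for IL18.

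**Figure D1:**
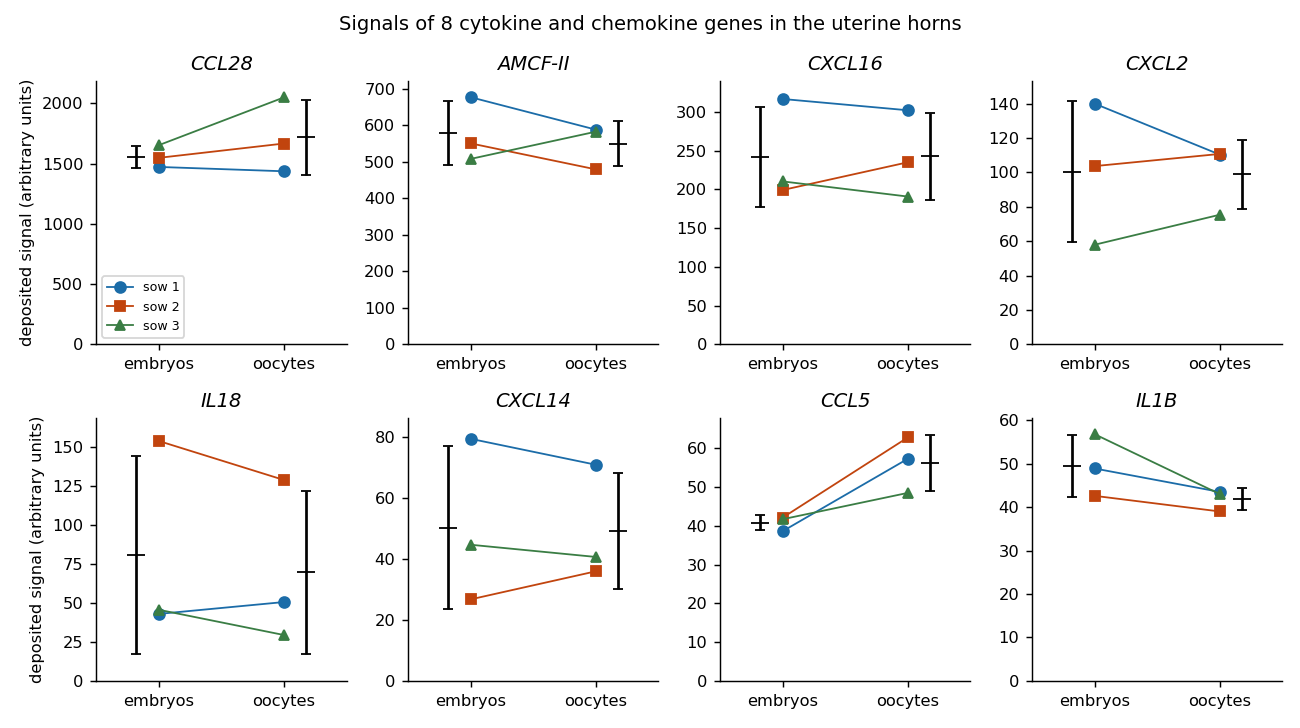
Deposited signal (y axis, arbitrary units, from 0) of the 5 members with a mean signal of 50 or more and the 3 nearest under it, in embryo horns (left) and oocyte horns (right). Each symbol is 1 sow, lines join the horns of a sow and black bars give the mean ± SD of 3 horns. IL18 stands apart in both horns of sow 2, and CXCL14 and CXCL16 in both horns of sow 1. CCL5 is lower in the embryo horn of every sow.

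CCL28 is a chemokine of mucosal epithelia that draws plasma cells producing immunoglobulin A. The gene (NCBI gene ID 554303) had a signal of 1472, 1548 and 1652 in the embryo horns of sows 1, 2 and 3, against 1436, 1667 and 2049.6 in the oocyte horns. The groups overlapped, and the highest value was that of the oocyte horn of sow 3. The means were 1557 ± 90.3 in embryo horns and 1718 ± 309.8 in oocyte horns (SD, n = 3 each), with a log2 difference of -0.12 (SE 0.14, unadjusted p = 0.393 from limma). The 95% interval of the fold of embryo over oocyte horns ran from 0.739 to 1.14, which was the narrowest among the 5 brighter members. JCHAIN, which joins immunoglobulin A chains and marks plasma cells, had 443, 84.6 and 127 in the embryo horns and 294, 62.9 and 176 in the oocyte horns of the same sows. Its order of the sows differed from that of CCL28, which was lowest in sow 1 in both horns.

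Both neutrophil attractants of the brighter members, AMCF-II and CXCL2, were close to 0 in their group difference. AMCF-II, a CXC chemokine of pig alveolar macrophages that the current gene table also lists as CXCL6, had 677, 551 and 508 in the embryo horns of sows 1, 2 and 3, against 588, 479 and 583 in the oocyte horns (gene ID 396900). It was higher in the embryo horn of sows 1 and 2 and lower in that of sow 3. The log2 difference was 0.07 (SE 0.16, unadjusted p = 0.679 from limma), with a 95% interval of the fold from 0.818 to 1.34. Its other 2 probe sets had mean signals of 0.567 and 2.70 on the same arrays, so that AMCF-II rests on 1 of 3 probe sets. CXCL2 had 140.1, 104 and 57.9 in the embryo horns, against 110.4, 111 and 75.4 in the oocyte horns (gene ID 414904). Sow 3 was lowest in both groups, and the log2 difference was -0.05 (SE 0.32, unadjusted p = 0.882 from limma, 95% interval of the fold 0.580 to 1.61). CXCL8, the third neutrophil attractant, lies next to AMCF-II in the genome with 0 protein-coding genes between them. It was dim, at 12.8, 30.0 and 33.9 in the embryo horns and 17.5, 28.3 and 16.6 in the oocyte horns, with a log2 difference of 0.21 (SE 0.48).

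CXCL16 and CXCL14 varied between sows more than between horns. CXCL16 is a membrane-bound chemokine that is shed by the protease ADAM10 and binds CXCR6. It had 317, 199 and 210.4 in the embryo horns of sows 1, 2 and 3, against 302, 235 and 191 in the oocyte horns (gene ID 396735). Sow 1 was highest in both groups and the groups overlapped throughout, with a log2 difference of -0.01 (SE 0.24, unadjusted p = 0.952 from limma, 95% interval of the fold 0.679 to 1.44). CXCL14, an epithelial chemokine that attracts monocytes, had a mean signal of 49.65 and lay just under the limit of 50. It had 79.3, 26.7 and 44.6 in the embryo horns, against 70.8, 35.9 and 40.6 in the oocyte horns (gene ID 494467), again with sow 1 highest in both groups. The log2 difference was -0.05 (SE 0.39, unadjusted p = 0.905 from limma). Its second probe set, at 43.9, 14.1 and 25.1 in the embryo horns and 36.2, 19.1 and 29.8 in the oocyte horns, had the same order of sows and a log2 difference of -0.15 (SE 0.41).

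The interleukin 1 family had 3 measured members, IL18, IL1B and IL1A. IL18, which caspase 1 activates and which stimulates interferon gamma production, had 42.9, 154 and 45.6 in the embryo horns of sows 1, 2 and 3, against 50.5, 129 and 29.4 in the oocyte horns (gene ID 397057). Sow 2 stood far above the others in both horns, and the embryo horn was lower in sow 1 and higher in sows 2 and 3. The log2 difference of 0.21 had an SE of 0.63, and the 95% interval of the fold, from 0.426 to 3.15, was the widest of the 5 brighter members. With the sow as a block the SE was 0.19 (unadjusted p = 0.285 and adjusted p = 0.811 from limma). IL1B, an early inflammatory cytokine, had a mean signal of 45.6. It had 48.9, 42.6 and 56.8 in the embryo horns, against 43.5, 39.0 and 43.0 in the oocyte horns (gene ID 397122). The embryo horn was the higher one in each sow by 0.14, 0.17 and 0.38 on the log2 scale, but the mean difference of 0.23 (SE 0.21, unadjusted p = 0.309 from limma) did not pass. After normalization its groups did not overlap, as for 4.03% of all probe sets. The other IL1B probe set was dim, at 1.00, 4.30 and 13.3 in the embryo horns and 11.0, 11.2 and 9.5 in the oocyte horns, with a log2 difference of -1.47 (SE 0.91). Both IL1A probe sets had mean signals under 10 and opposite signs, -1.48 (SE 1.00) and 0.49 (SE 0.83).

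CCL5 had the smallest p of the 40 members. This chemokine (RANTES) of T cells and natural killer cells had 38.6, 42.1 and 41.7 in the embryo horns of sows 1, 2 and 3, against 57.3, 62.8 and 48.5 in the oocyte horns (gene ID 396613). All 3 embryo horns lay below all 3 oocyte horns, a pattern shared by 3.98% of all probe sets. The ratio of embryo to oocyte horn was 0.674, 0.670 and 0.860 in the 3 sows, and the log2 difference was -0.46 (SE 0.21, unadjusted p = 0.0611 and adjusted p = 1.00 from limma). With the sow as a block the unadjusted p was 0.0303 and the adjusted p 0.518, so CCL5 did not pass in either fit. Of the T cell markers, CD2 had 7.50, 12.7 and 9.20 in the embryo horns, against 26.1, 20.4 and 9.70 in the oocyte horns, a log2 difference of -0.87 (SE 0.49). CD3D was at -0.43 (SE 0.35), CD4 at -0.43 (SE 0.73), CD3E at 0.32 (SE 0.47), CD8A at 0.20 (SE 0.42) and CD3G at 0.12 (SE 0.45), so that 3 of the 6 markers lay below 0 and 3 above. The 5'/3' signal ratio of the GAPDH control, which falls with RNA degradation, was 0.243, 0.130 and 0.199 in the embryo horns, against 0.355, 0.200 and 0.226 in the oocyte horns. In fits chosen after seeing the data, this control ratio (as a log2 mean with that of actin) was a covariate. CCL5 then lay at -0.54 (SE 0.22), and at -0.17 (SE 0.44) once the sow was added. With the sow alone its SE was 0.18. The ratio was lower in the embryo horn of each sow, so the fit with ratio and sow separates ratio and group poorly. The part of T cell content in the CCL5 values was not tested.

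**Figure D2:**
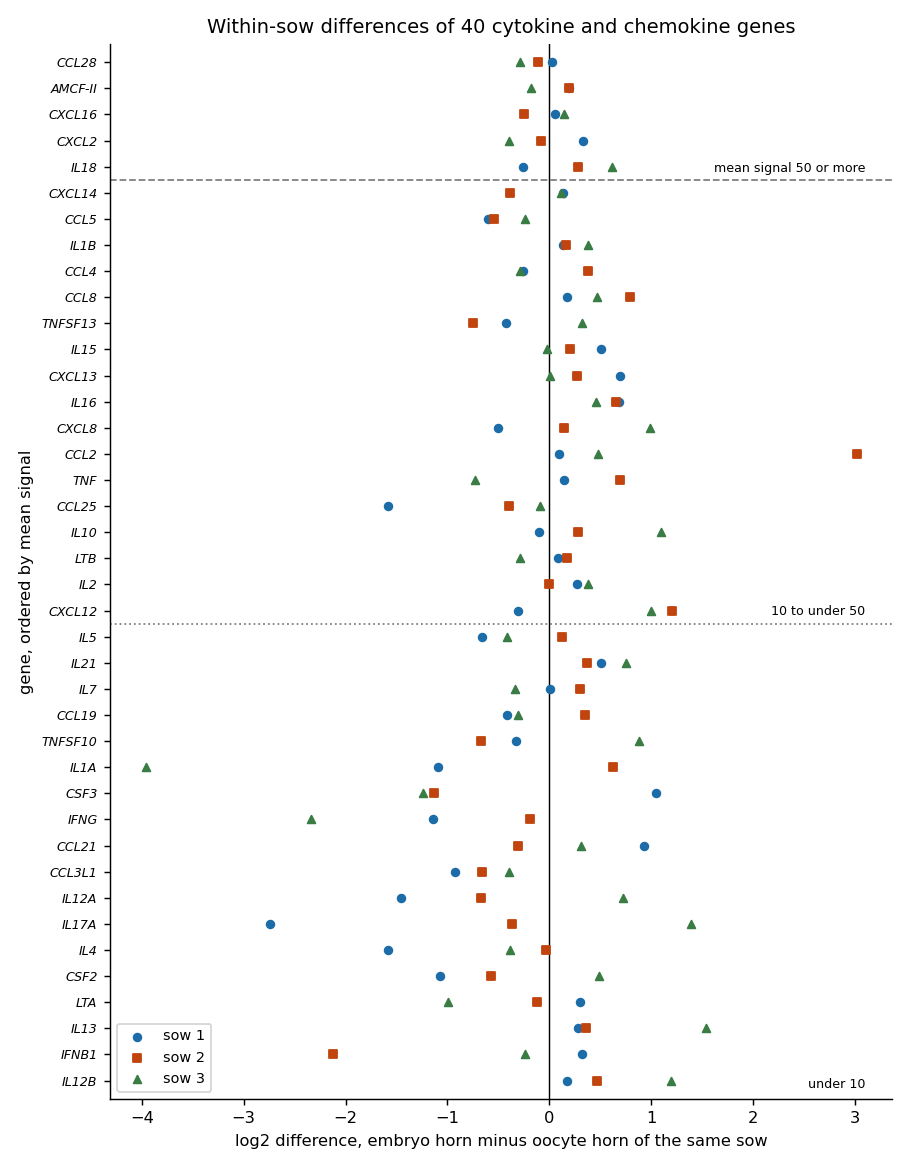
Log2 difference of the embryo horn minus the oocyte horn of the same sow (x axis) for the 40 members, ordered by mean signal (y axis), with 1 symbol per sow. The dashed line parts members with a mean signal of 50 or more from dimmer ones and the dotted line parts off those under 10. The points spread out towards the dim members, and all 3 points of CCL5 lie left of 0.

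Of the 35 dimmer members 17 had a mean signal from 10 to under 50 and 18 a mean under 10. The SE tended to grow as the signal fell, though IL1B and CCL5 had smaller ones than 3 of the brighter members. Its median was 0.24 for the 5 brighter members, 0.39 for the 17 and 0.74 for the 18, so that differences of 1 on the log2 scale are smaller than the reach of the 95% interval of each gene of the last class. Over all 40 members 9 (22.5%) were higher in the embryo horn of all 3 sows, against 14.9% of all probe sets, and 5 (12.5%) were lower in all 3, against 14.8%. The 9 were IL1B, IL2, IL13, IL16, IL21, IL12B, CXCL13, CCL2 and CCL8, and the 5 were IL4, IFNG, CCL3L1, CCL5 and CCL25. Of the 9, 6 were higher in all 3 sows in each of the 5 scalings, the exceptions being IL2, IL12B and CXCL13, and all of the 5 lower ones were. IL2 rested on a log2 gap of 0.00049 in sow 2, where its deposited signal was 11.8 in the embryo horn and 12.4 in the oocyte horn, and IL15 was higher in all 3 sows on the deposited signals alone. None of the 5 brighter members was among them. After normalization all embryo horns lay above all oocyte horns in 1 member (IL1B), against 4.03% of all probe sets. They lay below them in 2 (CCL5 and IL4), against 3.98%. On the deposited signals the groups of IL1B overlapped, and those of IL4, with a mean signal of 2.67, were tied at 2.1.

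TNF, IFNG and the T helper cytokines all had mean signals under 50. TNF, the central inflammatory cytokine, had 20.0, 22.1 and 9.60 in the embryo horns of sows 1, 2 and 3, against 17.4, 14.3 and 15.3 in the oocyte horns, a log2 difference of 0.03 (SE 0.42). IFNG, the interferon of T and natural killer cells, had 2.30, 8.70 and 1.80 in the embryo horns, against 4.90, 10.6 and 8.40 in the oocyte horns, a log2 difference of -1.22 (SE 0.78). IFNG was lower in the embryo horn of each sow, at signals near or under 10. IL2, IL4, IL5, IL13, IL17A and IL21 had mean signals of 1.07 to 13.2, and IL12A and IL12B had 3.43 and 0.850. IL10, which limits inflammation, had 18.2, 16.1 and 15.0 in the embryo horns, against 18.8, 13.9 and 6.70 in the oocyte horns, so that only sow 3 showed a wide gap. IL15, a survival factor of natural killer cells, had 35.8, 29.5 and 24.3 in the embryo horns, against 24.4, 26.6 and 24.1 in the oocyte horns, a log2 difference of 0.23 (SE 0.27).

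The TNF relatives and growth factors gave the same picture of small gaps or dim signals. LTB, which shapes lymphoid tissue, had 12.9, 21.0 and 10.6 in the embryo horns of sows 1, 2 and 3, against 11.7, 19.6 and 12.4 in the oocyte horns, a log2 difference of -0.01 (SE 0.46). TNFSF13, the gene of the plasma cell survival factor APRIL, had 21.1, 19.3 and 39.4 in the embryo horns, against 27.5, 33.5 and 30.8 in the oocyte horns. It was lower in the embryo horn of sows 1 and 2 and higher in that of sow 3, with a log2 difference of -0.29 (SE 0.34). LTA and TNFSF10, and CSF2 and CSF3, the colony-stimulating factors of macrophages and granulocytes, had mean signals of 1.83 to 7.0 and log2 differences of -0.44 to -0.04. IL7, a survival factor of lymphocytes, was at -0.01 (SE 0.49). The type I interferon IFNB1 had a signal of 0.300 to 0.700 on 5 arrays and of 3.40 in the oocyte horn of sow 2. CXCL13, which attracts B cells, had 35.9, 35.8 and 18.9 in the embryo horns, against 21.4, 30.7 and 18.4 in the oocyte horns, higher in each sow with a log2 difference of 0.32 (SE 0.37).

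The monocyte attractants CCL2 and CCL8, chosen for mention after their values were seen, lay higher in the embryo horn of each sow without passing the test. CCL8 had 42.4, 34.2 and 31.5 in the embryo horns, against 36.5, 20.4 and 22.2 in the oocyte horns. Its log2 difference was 0.48 (SE 0.29, unadjusted p = 0.137 from limma). CCL2 had 26.8, 17.8 and 27.2 in the embryo horns, against 24.1, 2.30 and 18.7 in the oocyte horns. Its log2 difference of 1.20 (SE 0.80) came mostly from sow 2, where the log2 gap was 3.02, against 0.10 in sow 1 and 0.48 in sow 3. The macrophage markers CD163 and AIF1 had log2 differences of 0.38 (SE 0.30) and 0.37 (SE 0.27), higher in the embryo horn of each sow, and CD14 had 0.10 (SE 0.48). The part of macrophage content in the CCL2 and CCL8 values was not tested. The remaining CC chemokines CCL3L1, CCL4, CCL19, CCL21 and CCL25 had mean signals of 5.27 to 35.2 and log2 differences of -0.69 to 0.31.

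**Figure D3:**
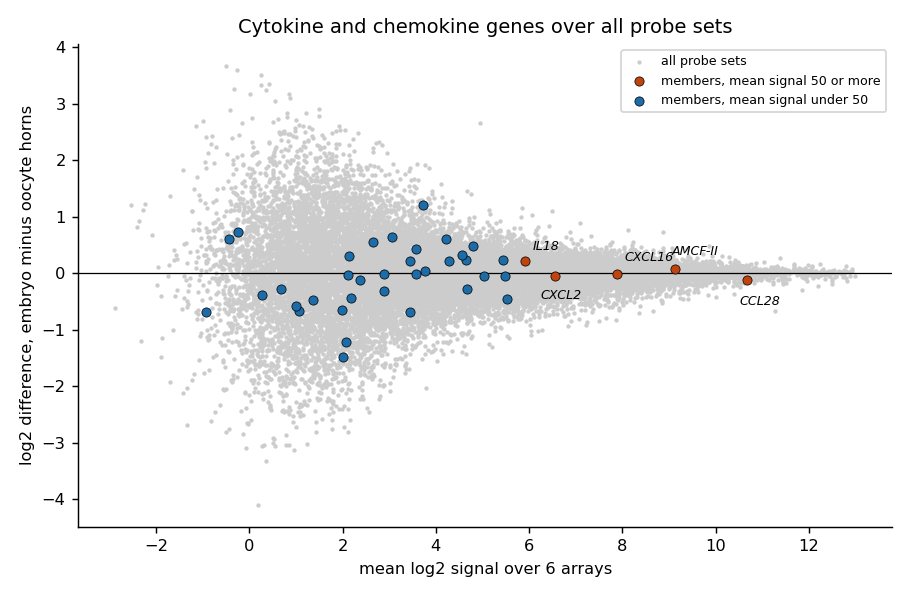
Log2 difference of embryo minus oocyte horns (y axis) against the mean log2 signal over 6 arrays (x axis) for 23999 probe sets (grey), members with a mean signal of 50 or more (red) and dimmer members (blue). The 40 members lie within the cloud of all probe sets, which narrows as the signal increases.

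The receptors of these signals, read from a list chosen with earlier results of these data known, did not pass either. Of the 24 listed receptors that the array names, 0 passed with limma. At an unadjusted p under 0.05 there was 1, IL18R1 (4.17%), against 2.88% of all probe sets. The median log2 difference was 0.13 over the 24, against 0.01 over all probe sets. Of the 24, 17 lay above 0 and 7 below, against 12197 above and 11802 below over all probe sets. The 10 receptors with a mean signal of 50 or more had a median of 0.02, with 5 above 0 and 5 below. IFNGR1, the ligand-binding chain of the interferon gamma receptor, had 89.3, 98.0 and 91.3 in the embryo horns of sows 1, 2 and 3, against 72.0, 67.3 and 75.5 in the oocyte horns. All embryo horns lay above all oocyte horns, as in 2 of the 24 receptors (IFNGR1 and IL18R1) and 4.03% of all probe sets. The log2 difference of IFNGR1 was 0.37 (SE 0.16, unadjusted p = 0.050 and adjusted p = 1.00 from limma, and 0.0221 and 0.492 with the sow as a block). It was 0.13 with the 5'/3' control ratio and the sow in the fit, which separates ratio and group poorly. IL18R1, a chain of the IL18 receptor, was dim, at 12.7, 9.20 and 9.5 in the embryo horns and 2.00, 7.80 and 2.40 in the oocyte horns (log2 difference 1.61, SE 0.65, unadjusted p = 0.0373 and adjusted p = 1.00 from limma).

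CXCR4, the receptor of CXCL12, had 259, 261 and 239.5 in the embryo horns, against 209, 268 and 211 in the oocyte horns, with overlap through sow 2 and a log2 difference of 0.15 (SE 0.14). Its ligand CXCL12 was dim, at 11.0, 9.60 and 19.3 in the embryo horns and 13.1, 4.40 and 9.10 in the oocyte horns. IL1R1, through which IL1A and IL1B act, had 98.5, 95.4 and 69.2 in the embryo horns, against 109.5, 118 and 81.4 in the oocyte horns. Its log2 difference was -0.24 (SE 0.22), lower in the embryo horn of each sow, whereas its second and dimmer probe set (mean signal 10.9) had 0.64 (SE 0.56). IL10RB, IL27RA and IL4R, receptor chains for IL10, IL27 and IL4, had log2 differences of -0.26 (SE 0.24), -0.22 (SE 0.23) and 0.15 (SE 0.22). The TNF receptors TNFRSF1A and TNFRSF1B had 0.07 (SE 0.13) and 0.08 (SE 0.16), at mean signals of 221 and 120.5.

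Of the 29 listed signalling and processing genes named by the array 0 passed, and 1 had an unadjusted p under 0.05 (3.45%, against 2.88% of all probe sets). This was MAP3K7, the kinase TAK1 that relays interleukin 1 and TNF signals to NF-kappaB. It had 135, 113 and 103 in the embryo horns of sows 1, 2 and 3, against 155, 195 and 129.5 in the oocyte horns, with the embryo horn lower in each sow. The log2 difference was -0.45 (SE 0.19, unadjusted p = 0.0494 and adjusted p = 1.00 from limma). With the sow as a block the unadjusted p was 0.00665 and the adjusted p 0.404 from limma. The log2 difference was -0.12 in the fit with the 5'/3' control ratio and the sow, which separates ratio and group poorly. The second and dimmer probe set of MAP3K7 (mean signal 36.3) had -0.45 (SE 0.24) without the block. It was lower in the embryo horn of each sow, with no overlap of the groups, as for 3.98% of all probe sets. NFKBIA and NFKBIB, inhibitors of NF-kappaB, had 0.10 (SE 0.12) and -0.16 (SE 0.13). NFKBIA, whose gene NF-kappaB itself induces, had 444, 399 and 393 in the embryo horns, against 408, 363 and 379 in the oocyte horns. The kinase IRAK1 had 0.14 (SE 0.16), the transcription factor STAT5B 0.30 (SE 0.24; -0.08 on its other probe set) and ADAM10, the sheddase of CXCL16, -0.47 (SE 0.38). ADAM10 was lower in the embryo horn of each sow, with 73.5, 29.2 and 42.2 in the embryo horns against 96.6, 40.6 and 60.9 in the oocyte horns (unadjusted p = 0.0176 and adjusted p = 0.471 from limma with the sow as a block), but its difference was 0.051 with the 5'/3' control ratio in the fit. Over the 29 genes the median was 0.03.

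**Figure D4:**
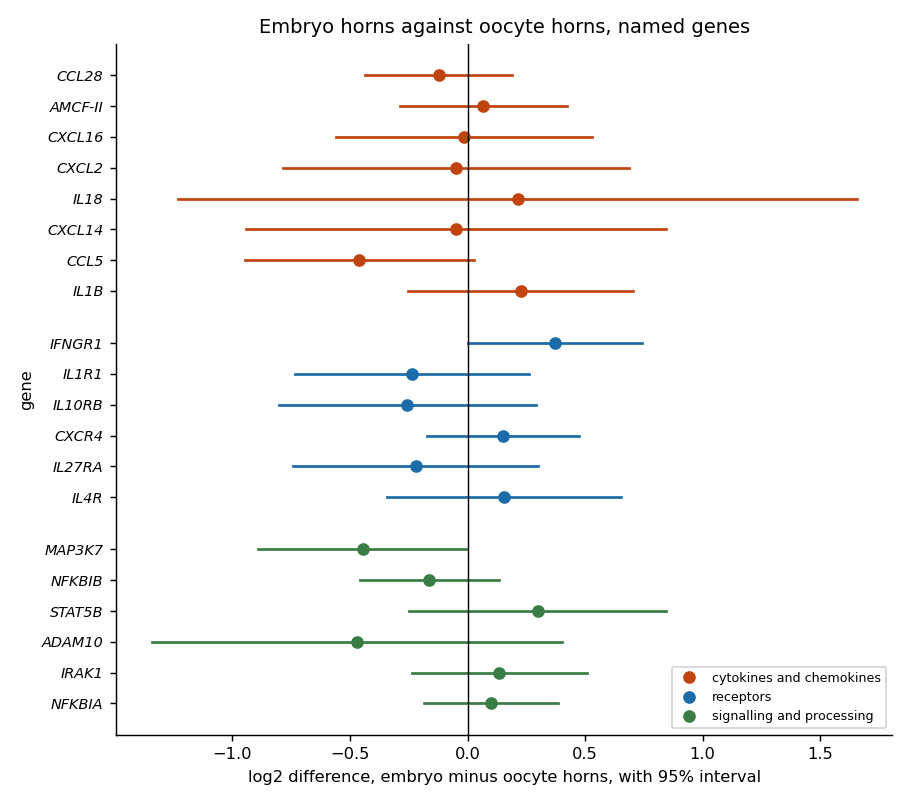
Log2 difference of embryo minus oocyte horns with its 95% interval from limma (x axis) for 8 members, 6 receptors and 6 signalling or processing genes (y axis). The intervals are from the fit without the sow. The receptors and the signalling or processing genes are the brighter ones of their lists with the smallest p in that fit. Of the 20 intervals only that of MAP3K7 leaves out 0, with its upper end at -0.001, and IL18 has the widest. With the sow as a block (not drawn), the intervals of CCL5 (-0.87 to -0.05), IFNGR1 (0.07 to 0.68) and ADAM10 (-0.84 to -0.10) leave out 0 too. An interval without 0 is the same as an unadjusted p under 0.05 from limma. Of all probe sets 2.88% reached this without the block and 8.70% with it.

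Between sows several members differed beyond the gap between the 2 horns of a sow, at a share near that of the whole array. An F test of the sow in the fit with the group, added after seeing the data, was run over all probe sets with limma. It takes the horns of a sow as its replicates, so it compares these 3 animals and what was scraped from them. It called 5 of the 40 members (12.5%) at an adjusted p of 0.05, against 11.3% of all probe sets, and 3 of the 5 brighter members, against 23.5% of the probe sets with a mean signal of 50 or more. IL18 averaged 46.7, 141 and 37.5 over the horns of sows 1, 2 and 3, a 3.77-fold span (adjusted p = 0.00105 from limma). CXCL16 averaged 310, 217 and 201 (adjusted p = 0.0127), CXCL2 125, 107 and 66.6 (adjusted p = 0.0223) and CXCL14 75.0, 31.3 and 42.6 (adjusted p = 0.0269). IL16, a chemoattractant that binds CD4, had 20.0, 47.8 and 18.1 in the embryo horns and 12, 31.5 and 12.8 in the oocyte horns, highest in sow 2 in both (adjusted p = 0.0401).

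Only IL18 was called in each of the 4 scalings and in each of the 6 fits that left out 1 array (highest adjusted p = 0.0121). CXCL16 was not called without the embryo horn (adjusted p = 0.145) or the oocyte horn (0.0771) of sow 1, and CXCL2 not without the embryo horn of sow 1 (0.0694) or of sow 3 (0.0969). CXCL14 was not called without the embryo horn of sow 1 (0.246), that of sow 2 (0.0924) or the oocyte horn of sow 1 (0.123), and IL16 kept its call in 2 of the 6 fits. IL18BP, the soluble protein that neutralises IL18, also differed between sows, with 56.3, 117 and 119 in the embryo horns and 49.2, 127 and 89.8 in the oocyte horns (adjusted p = 0.00294). It shared the low value of sow 1 but not the gap between sows 2 and 3. CASP1, which activates IL18, had 46.6, 57.1 and 67.0 in the embryo horns and 41.9, 64.2 and 62.2 in the oocyte horns (adjusted p = 0.134).

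The summed marker signals differed between sows too. The summed stromal markers were 6559 and 7022 in the embryo and oocyte horn of sow 1, 3220 and 3305 in those of sow 2 and 4887 and 4697 in those of sow 3. Smooth muscle markers (4 of 5 listed genes) summed to 1365 and 2141 in sow 1, 572 and 458 in sow 2 and 908 and 787 in sow 3, and epithelial markers (6 of 6) to 7391 and 7580, 9580 and 9845, and 10058 and 9533. T cell markers summed to 101 and 108, 153 and 168, and 99.4 and 94.4. Of these markers CD3D, CD3E, CD3G and CD8A averaged highest in sow 2, but CD2 and CD4 in sow 1. Sow 2, with the most IL18 and IL16 signal, had the highest T cell and macrophage or monocyte sums. Its stromal, smooth muscle, endothelial and B or plasma cell sums were the lowest. The 5'/3' ratio of the GAPDH control was highest in sow 1 and lowest in sow 2 in both horns. The part of cell makeup and RNA quality in the differences between sows was not tested.

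**Figure D5:**
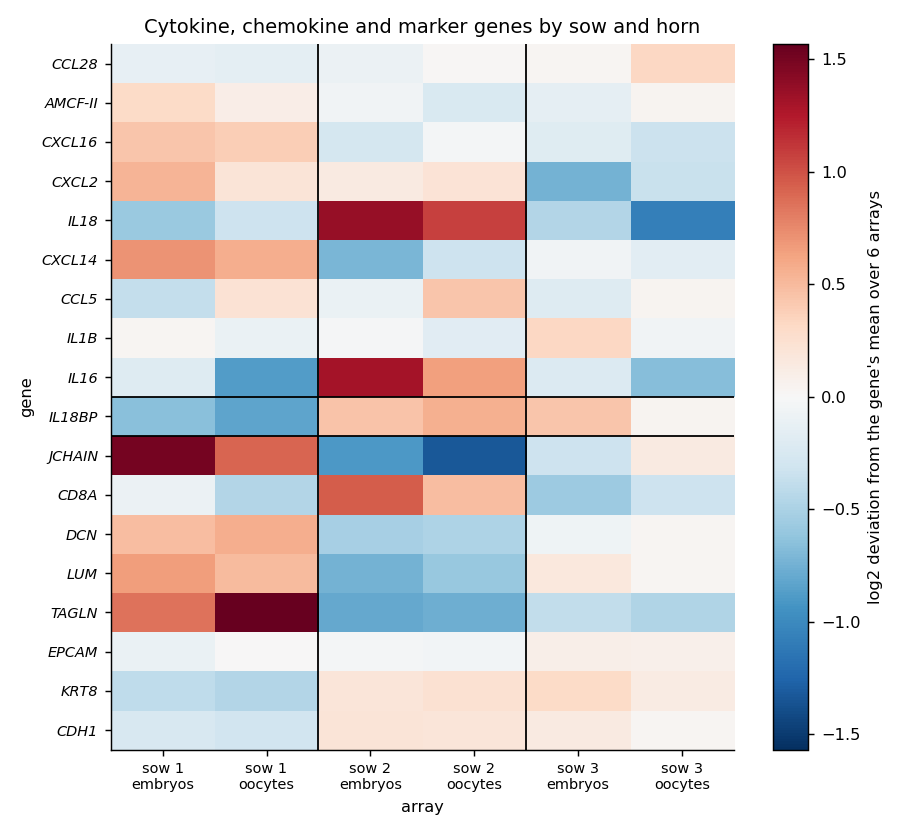
Log2 deviation of the normalized signal from the mean of each gene over the 6 arrays (colour), for 9 members, IL18BP and 8 marker genes (y axis) on the embryo and oocyte array of each sow (x axis). IL18 and IL16 are high on both arrays of sow 2, CXCL14, CXCL16 and the stromal genes DCN and LUM on both arrays of sow 1.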

How the data were processed

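Epithelial scrapings of 6 uterine horns (3 sows, 1 embryo and 1 oocyte horn each) were measured on Affymetrix porcine arrays. The deposited values are intensity signals per probe set, which the authors made with Microarray Suite 5.1 (MAS5). Each array had been scaled so that its mean without the highest and lowest 2% was 100.02, and no trace of the Lowess step named in the methods was found in these values. Detection calls and single probes were not used here. Precision is limited by the number of arrays.

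Values below 0.1 were raised to 0.1, log2 transformed and normalized by cyclic loess. After removal of 124 control probe sets, 23999 were tested with limma 3.58.1 in R 4.3.3, without a filter on low signals, with the prior variance following the mean signal, and p-values were adjusted by the Benjamini-Hochberg method at 0.05. Intervals are at 95%. The model held the group alone, and the sow was added as a block in a second fit. The paper's own model also had no term for the sow. It differed in being fitted to single probes, with a probe effect, a random array effect and Bonferroni adjustment. The fits here are therefore not a repeat of it. Arrays carry the numbers 1 to 3 within each group, and the ratios that the methods work out per sow for 1 gene are those of arrays with the same number. Deviations from the group mean had a correlation of 0.207, 0.173 and 0.100 within the 3 pairs. Both fits were tested on simulated data, with changes placed in brighter probe sets and an adjusted p under 0.05. The simulated horns of a sow were given a correlation of 0.5. This is above the values within the 3 pairs, so recovery with the block may be overstated. Of 67 changes of 0.5 on the log2 scale, 2 were recovered without the block and 0 with it. Of 67 changes of 1 it was 19 and 18, and of 66 changes of 2 it was 47 and 53. Most changes of 1 or less would thus be missed.

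Symbols come from the annotation of the array, with 10069 of the tested probe sets carrying 1 symbol, 198 several and 13732 none. Matching 9961 of them to the Sscrofa11.1 gene table changed 0 symbols. The members and gene lists were chosen with earlier results of these data known. Named were all members with a mean signal of 50 or more, the 3 nearest under it, and, of each other list, the 6 genes of that brightness with the smallest p. Further genes are given as examples of the dim members or beside a result, chosen after their values were seen. Other settings tried were quantile normalization, a common median, no normalization beyond that deposited, 32 added to every signal, a filter at the median signal, a constant prior variance, the sow block, averaging a gene's probe sets, and the omission of single arrays. The 5'/3' control ratio as a covariate and the test between sows were added after seeing the data.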

Additional observations from a re-analysis of the deposited data

How the results depend on the processing

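The count of members, receptors and signalling genes that passed between embryo and oocyte horns was 0 under each of the 16 alternatives, and over all probe sets it was 0 except with the 5'/3' control ratio and the replicate block together, where 1 passed. The number at an unadjusted p under 0.05 over all probe sets was 692, against 232 among probe sets above the median signal, 2088 with the replicate block, 1253 with the control ratio, 1619 with both, and 560 to 1034 without 1 array. Among the members it was 0, against 1 to 3 under 7 of the alternatives (CCL5 in 4 of them). The block (pairing the horns of a sow) changed no call at an adjusted p of 0.05. At an unadjusted p under 0.05 it moved the receptors to 3 of 24, against 1 without it (IL18R1, with IFNGR1 and CCR2 added). The signalling genes moved to 2 of 29, against 1 (MAP3K7, with ADAM10 added). Over all probe sets the share moved to 8.70%, against 2.88% without the block. The median log2 difference of the 5 brighter members was -0.29 with the control ratio and the block, and -0.19 to 0.16 without 1 array. Without 1 array, the sign turned for IL18 (-0.41 to 0.80), CXCL2 (-0.33 to 0.31), AMCF-II (-0.067 to 0.16), CXCL16 (-0.24 to 0.17), CCL28 (-0.23 to 0.0059), CXCL14 (-0.41 to 0.30) and IL4R (-0.028 to 0.28). With the control ratio it turned for IL18 (-0.45), CXCL2 (0.039), CXCL16 (0.27), CXCL14 (0.50), IL4R (-0.061), ADAM10 (0.051) and IRAK1 (-0.0084). With the ratio and the block it turned for AMCF-II (-0.29), CXCL16 (0.30), CXCL14 (0.33) and IL10RB (0.36), and with the mean of all probe sets for IL1B (-0.62), IL1R1 (0.20), IL4R (-0.15) and IRAK1 (-0.11). The cause was not tested. CCL5 (-0.56 to -0.17) and IFNGR1 (0.13 to 0.41) kept their sign throughout, as did CXCR4, IL27RA, MAP3K7, NFKBIB, STAT5B and NFKBIA. The groups of CCL5 and IFNGR1 did not overlap, so leaving out 1 array could not turn their sign. Members higher with embryos in all 3 sows numbered 6 to 9 and lower ones 5 to 6 over the scalings, and no such count exists without 1 array. Members that differed between sows numbered 4 to 6 over the scalings, 1 without the embryo horn of sow 1 and 2 without the oocyte horn of sow 1.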

Other observations

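In the test between sows 2 of the 24 receptors (8.33%) and 3 of the 29 signalling and processing genes (10.3%) were called, against 11.3% of all probe sets, so neither list stood out. The genes given here were picked after their values were seen. TNFRSF17, the receptor on plasma cells for the TNF relatives APRIL and BAFF, had a signal of 3.40, 40.8 and 2.50 in the embryo horns of sows 1, 2 and 3, against 1.6, 42.5 and 1.6 in the oocyte horns (adjusted p = 0.00575 from limma). Sow 2 was thus high in both horns and the others near 0. JCHAIN, a marker of the same cells, was lowest in sow 2, at 84.6 in the embryo horn and 62.9 in the oocyte horn. TNFSF13, the gene of APRIL, did not follow the sows in this way. IFNAR1, a chain of the type I interferon receptor, had 340.1, 200.2 and 221 in the embryo horns, against 335, 250.5 and 239 in the oocyte horns (adjusted p = 0.00937 between sows from limma). ADAM10 also differed between sows (adjusted p = 0.0114 from limma), highest in sow 1 as was its substrate CXCL16.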
